A study of Mus musculus with 26 samples.

Results

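The enzymes that activate, transfer and oxidise fatty acids as coenzyme A (CoA) thioesters were examined across 26 RNA libraries of mouse small intestinal epithelium. Members were the genes whose symbols belong to the families Acad, Acox, Acaa, Hadh, Eci, Ehhadh, Cpt1 and Cpt2, Acot, Acsl, Acsm and Acsf. Of the 20409 genes listed in at least 1 of 4 expression tables, 50 were members. Acsm1 and Acsm4 belong to these families by name and were listed in none of the tables.

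The study used mice in which Villin-CreERT2, a tamoxifen-dependent Cre recombinase made in the intestinal epithelium, was meant to delete the genes for SMAD1 and SMAD5, for SMAD4, for SMAD1, SMAD4 and SMAD5, or for TBX3. SMAD proteins carry signals from the receptors for bone morphogenetic proteins and transforming growth factor beta to the nucleus, and TBX3 belongs to the T-box family of transcription factors. Animals were given tamoxifen, or oil as its vehicle, and whole epithelium of the proximal small intestine was taken 6 or 30 days after the first injection. Polyadenylated RNA was sequenced in read pairs, and expression was deposited as FPKM, fragment counts scaled for transcript length and for library size.

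In the SMAD1/5 table of day 6, 3 libraries were controls and 3 were labelled SMAD1/5 iDKO, all from mice given tamoxifen. The day 6 SMAD4 table held 2 controls given oil and 2 libraries labelled SMAD4 iKO given tamoxifen. The day 30 SMAD table held 5 controls, 2 labelled SMAD1/5 iDKO and 3 labelled SMAD1/4/5 iTKO. Of those 5 controls, 2 came from the SMAD1/5 line with tamoxifen and 3 from the SMAD1/4/5 line with oil, and both mutant groups had tamoxifen. The day 30 TBX3 table held 3 controls given oil and 3 libraries labelled TBX3 iKO given tamoxifen. Controls lacked Cre when they had tamoxifen and carried it when they had oil, so Cre activity and deletion went together in every comparison, and in 3 of the 4 tables tamoxifen itself differed between mutants and some or all controls. The labels do not say that each library came from a separate animal, so the p-values measure the spread between these libraries only.

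Fatty acids enter metabolism by being joined to CoA. Medium-chain synthetases of the Acsm family and long-chain synthetases of the Acsl family make this bond, and thioesterases of the Acot family break it. Long-chain acyl-CoA enters mitochondria through the carnitine shuttle, in which CPT1 makes the acylcarnitine and CPT2 turns it back, and is then shortened by acyl-CoA dehydrogenases, the trifunctional protein and thiolases. Peroxisomes run a parallel pathway that begins with the acyl-CoA oxidases and shortens very long and branched chains. Enterocytes take up dietary fat and use activated fatty acids both as fuel and to rebuild triglyceride for chylomicrons.

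The deletions were first checked on the targeted genes. Smad4 was 24.9 and 22.9 FPKM in the SMAD4 controls and 7.19 and 5.11 in the libraries labelled iKO, a fall of 1.89 on the log2 scale (limma, Benjamini-Hochberg adjusted p = 0.0176), and it also fell in iTKO. Tbx3 fell in TBX3 iKO, by 1.81 (limma, adjusted p = 0.0479), and also in each SMAD mutant group. Smad1 did not pass the threshold anywhere, and Smad5 rose in the 3 groups labelled as lacking it. A value over the whole gene includes exons outside a deleted part, so it does not check those deletions, and the mutants are named below by their labels. Enterocyte markers summed to between 18600 and 33300 FPKM in every group, while fibroblast markers summed to at most 8.9, endothelial markers to at most 1.53 and smooth muscle markers to at most 7.33. Plasma cell transcripts were higher and uneven, with Igkc at 40.5 ± 30.0 FPKM (SD) in iTKO and 25.2 ± 15.4 in day 30 controls. Myeloid calls went both ways, among them Cd14, up in SMAD1/5 iDKO on both days and in iTKO, and Itgax, down in both day 30 groups. Approximate depth, read from the step size of the values, was 15300000 to 29900000 fragments for libraries of day 6 SMAD1/5, 13000000 to 18000000 fragments in the day 30 SMAD table and 10100000 to 18400000 fragments in the TBX3 table. It is unknown for the SMAD4 table.

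Differences were tested within each table with limma on log2(FPKM + 0.5), for genes with at least 1 FPKM in as many libraries as the smallest group. P-values were adjusted over all genes tested by the Benjamini-Hochberg method, and a gene was said to rise or fall when the adjusted p was under 0.05. On day 6, 41 of 49 listed members were tested for SMAD1/5 iDKO, of which 7 rose (17.1%) and 10 fell (24.4%). Those 17 calls became 7 without iDKO 3 and 11 without control 3, iDKO 1 or iDKO 2. Among all 10827 genes tested there, 15.5% rose, 8.26% fell and 23.8% changed in either direction. The median log2 difference was −0.021 over the members and 0.184 over all genes, so the typical gene lay 0.18 higher in iDKO, a shift that centring each library on its median brought to 0.01. With that centring the members' median was −0.192, 5 members rose and 13 fell, against 767 and 1193 of all genes, and with quantile normalisation 7 rose and 11 fell, against 1117 and 1162. Without centring, the figures for all genes were 1681 and 894.

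On day 30, 43 of 47 listed members were tested. In SMAD1/5 iDKO 3 rose (6.98%) and 12 fell (27.9%), where 9.43% of all genes rose, 9.31% fell and 18.7% changed. The median was −0.187 over the members and 0.01 over all genes. In SMAD1/4/5 iTKO 3 rose and 7 fell (16.3%), where 9.13% of all genes rose, 8.95% fell and 18.1% changed. That median was −0.086 over the members and 0.008 over all genes. The iDKO and iTKO differences share the same 5 controls and are given side by side only. The iDKO counts hung on 1 library: without iDKO 1, which left a single iDKO library, 6 members were called in place of 15. With the controls of the SMAD1/5 line alone, 9 were called.

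For SMAD4 iKO on day 6, 44 of 48 listed members were tested, 5 rose and 5 fell (11.4% each), where 1.28% of all genes rose, 2.14% fell and 3.42% changed. Medians were −0.055 over the members and 0.026 over all genes. All 10 of those calls rest on the 2 libraries per group, since none was left when control 1, control 2, iKO 1 or iKO 2 was left out. For TBX3 iKO 39 of 50 listed members were tested, 1 rose and 1 fell (2.56% each), where 1.34% of all genes rose, 2.08% fell and 3.42% changed. Over all genes 131 rose and 204 fell, 154 and 135 after median centring, and 159 and 178 after quantile normalisation. With either scaling 2 members rose and 1 fell. A few members passed the filter only through the group in which they were higher, namely Acsm5 in both day 6 tables, Acot6 on day 30 and Acsl4 in the SMAD4 table. Acsm5 is among the falls counted on day 6, and its calls there are not support for them.

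**Figure D1:**
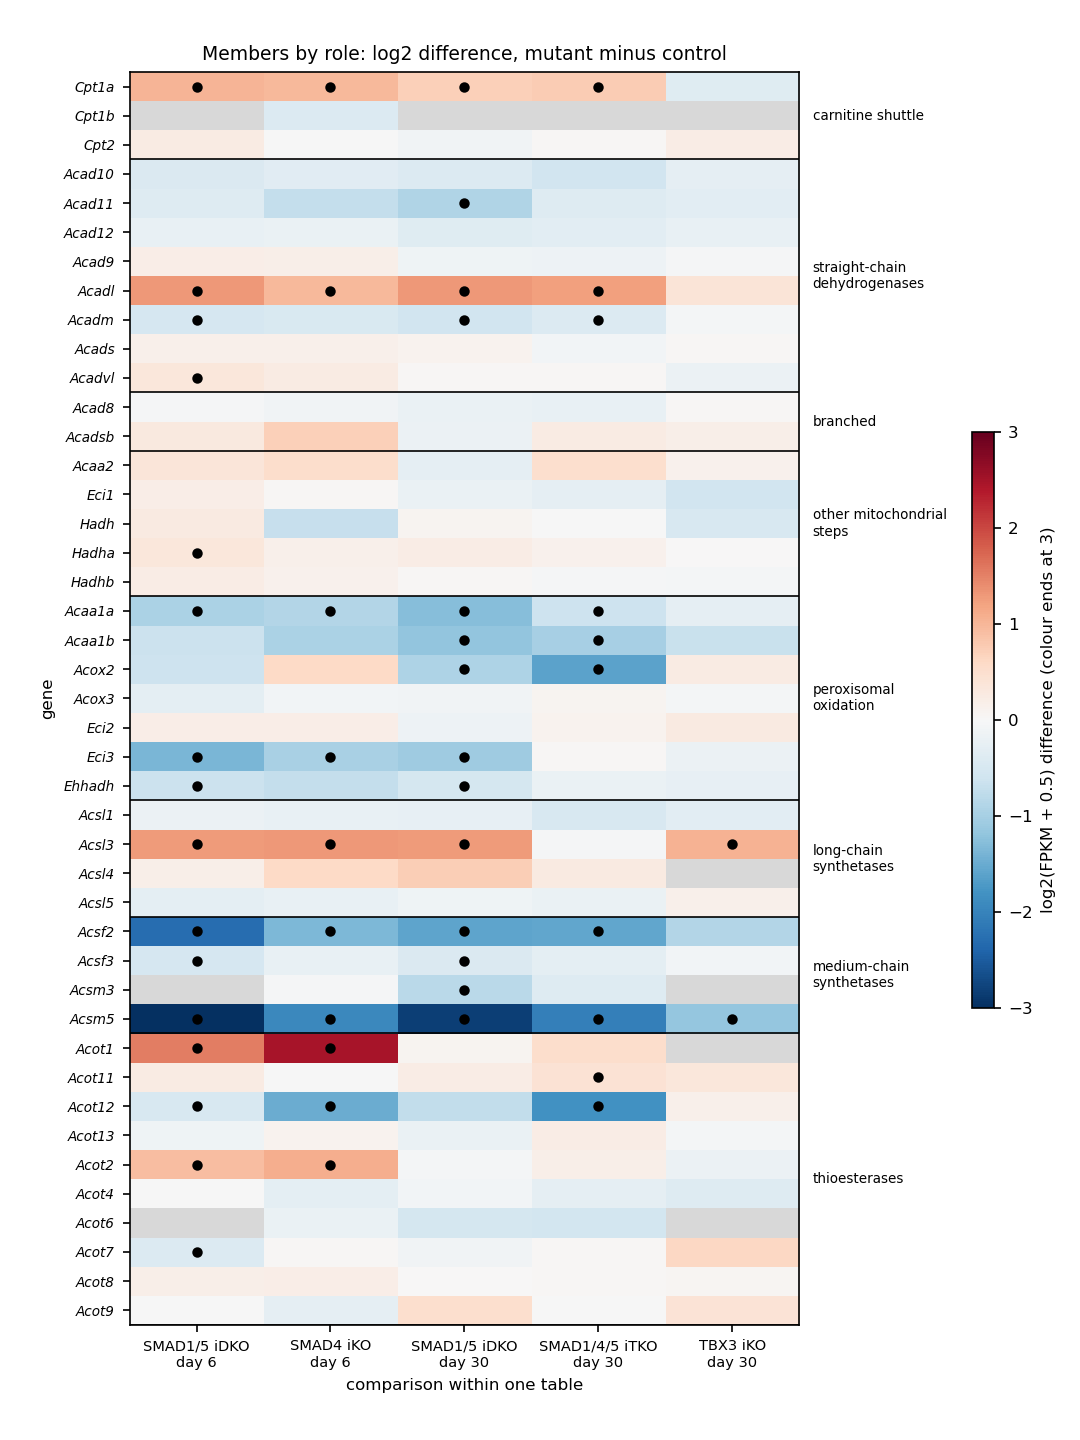
Log2 differences of FPKM + 0.5, mutant minus control, for 43 of the 44 members tested in at least 1 comparison (rows, grouped by role) in the 5 comparisons with controls (columns). Blue is lower and red higher in the mutant, grey was not tested, and a dot marks an adjusted p under 0.05; Acsm5 carries a dot in every column, although on day 6 it was tested only through its controls, and the dots in the peroxisomal rows are all blue.

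Some cell type markers differed between mutants and controls, and their part in the members' differences was not tested. Beside the counts below, 15.5% of all genes rose and 8.26% fell in day 6 SMAD1/5 iDKO, and 9.43% and 9.31% in day 30 iDKO. The shares were 9.13% and 8.95% in iTKO, 1.28% and 2.14% in SMAD4 iKO, and 1.34% and 2.08% in TBX3 iKO. Of 10 enterocyte markers, 2 rose and 2 fell in day 6 SMAD1/5 iDKO, 3 rose and 1 fell in day 30 iDKO, and 1 rose and 4 fell in iTKO. In SMAD4 iKO and TBX3 iKO 1 fell and 0 rose, with medians over the list of −0.475 and −0.016 on the log2 scale. Cdh1, the epithelial cadherin, rose in the 3 groups with SMAD1/5 deletion by label, and Fabp2, the intestinal fatty acid binding protein, fell in all 4 SMAD groups, by 1.28, 1.16, 1.05 and 0.76. Enterocyte sums were 25700 to 29700 FPKM in SMAD4 controls and 21900 to 22400 in iKO, and the ranges of mutants and controls overlapped in the other tables. In iDKO 8 of 13 tested T-cell and intraepithelial lymphocyte markers fell and in iTKO 12 of 13, with sums of 243 to 379 FPKM in controls, 131 to 166 in iDKO and 93.5 to 141 in iTKO. Paneth markers fell in 7 of 8 cases in both groups, goblet markers in 4 of 6 in both, and enteroendocrine markers in 6 of 8 in iDKO and 8 of 8 in iTKO. Paneth marker sums went from 15900 to 22700 in controls to 7050 to 7550 in iDKO and 4430 to 8840 in iTKO. Crypt and stem markers went both ways. Pcna rose in SMAD1/5 iDKO on both days, Ascl2 fell in both day 30 groups, and in iTKO Smoc2 rose and Olfm4 fell. Of the enteroendocrine markers, Sct alone was called on day 6, falling by 2.46 in SMAD1/5 iDKO and by 1.96 in SMAD4 iKO. On day 6 no lymphocyte marker fell in SMAD1/5 iDKO and 1 of 12 did in SMAD4 iKO, while 3 of 5 and 2 of 5 tuft markers fell. Lymphocyte sums there were 153 to 190 FPKM in SMAD1/5 controls and 57.7 to 164 in iDKO, and 208 to 231 in SMAD4 controls and 66.6 to 110 in iKO. Paneth sums varied widely within the day 6 SMAD1/5 groups, from 74.1 to 9490 in controls and 104 to 4630 in iDKO. Without the 2 libraries lowest in them, control 2 and iDKO 2, 5 members rose and 7 fell, an alternative chosen after seeing the data; the calls of Acadm, Acadvl, Hadha, Acot12 and Ehhadh were then lost. In tissue of mixed cells, fewer cells of a type and less RNA per cell cannot be told apart.

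Promoters of 6 members that the results turn on are shown, so that the genes that fell (Acsm5, Acsf2, Acaa1a, Acot12) can be read beside those that rose (Acadl, Cpt1a). The sequences are those of the RefSeq promoter table for GRCm38.p6, cut to leave out annotated untranslated exon sequence, and run 5′ to 3′ on the gene's strand. They lie at chr7:119526015-119526207 for Acsm5 (plus strand), chr11:94601872-94602036 for Acsf2 (minus), chr9:119341160-119341293 for Acaa1a (plus), chr13:91741271-91741511 for Acot12 (plus), chr1:66863310-66863559 for Acadl (minus) and chr19:3323051-3323284 for Cpt1a (plus). Capitals mark matches to a motif searched.
Acsm5: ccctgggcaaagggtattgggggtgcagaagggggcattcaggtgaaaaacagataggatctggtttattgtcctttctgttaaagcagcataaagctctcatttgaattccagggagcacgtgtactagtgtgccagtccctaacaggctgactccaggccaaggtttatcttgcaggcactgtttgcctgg
Acsf2: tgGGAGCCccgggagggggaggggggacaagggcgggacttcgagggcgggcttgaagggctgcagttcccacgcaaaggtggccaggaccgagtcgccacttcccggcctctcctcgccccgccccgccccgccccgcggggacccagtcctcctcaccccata
Acaa1a: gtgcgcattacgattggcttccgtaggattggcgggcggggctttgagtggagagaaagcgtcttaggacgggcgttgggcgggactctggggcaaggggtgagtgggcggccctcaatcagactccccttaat
Acot12: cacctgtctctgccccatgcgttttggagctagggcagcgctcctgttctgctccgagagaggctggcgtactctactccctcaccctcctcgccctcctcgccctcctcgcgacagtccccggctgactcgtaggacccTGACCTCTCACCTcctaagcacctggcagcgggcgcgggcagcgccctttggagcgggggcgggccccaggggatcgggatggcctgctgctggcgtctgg
Acadl: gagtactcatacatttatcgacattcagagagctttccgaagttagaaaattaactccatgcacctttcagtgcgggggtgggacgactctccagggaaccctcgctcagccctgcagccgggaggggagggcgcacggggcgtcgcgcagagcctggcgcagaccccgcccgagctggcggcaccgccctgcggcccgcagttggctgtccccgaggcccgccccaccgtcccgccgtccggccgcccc
Cpt1a: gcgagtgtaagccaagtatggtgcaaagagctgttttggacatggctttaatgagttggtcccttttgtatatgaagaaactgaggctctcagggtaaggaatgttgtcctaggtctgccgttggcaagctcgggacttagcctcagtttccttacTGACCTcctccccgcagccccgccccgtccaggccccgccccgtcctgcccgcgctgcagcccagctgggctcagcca

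The motifs were the direct repeat AGGTCANAGGTCA (DR1, the element bound by PPAR and HNF4 receptors, with at most 2 mismatches), its half-site AGGTCA, and 3 motifs bound by SMAD proteins, searched on both strands of 250 bases before to 50 after the start. A half-site may lie inside a DR1 match. Of the 50 members, 44 had at least 1 entry, with 52 promoters in all, and Acaa2, Acad9, Acot13, Acot6 and Cpt1b were among those with none. DR1 was matched in 3 of the 52 member promoters (5.77%), those of Acot12, Acot4 and Acox2, against 3.86% of all 32851 promoters. The Acot12 match lay on the minus strand at −110 to −98, with 1 mismatch, and held a half-site at −110 to −105. Cpt1a had a half-site on the minus strand at −94 to −89, and Acsf2 had the SMAD motif GGAGCC at −248 to −243. The windows printed for Acsm5, Acaa1a and Acadl held no match. Past the printed windows but within the stretch searched, Acadl held the SMAD motif GGAGCC, with its first base at 22. Acot12 held the SMAD motif GGCGCC there, with its first base at 24, while Acsm5 and Acaa1a had no match in the whole stretch. The half-site was found in 21.2% of member promoters against 16.3% of all promoters. Of the SMAD motifs, GGAGCC was found in 36.5% of member promoters and 30.8% of all. The second, GGCGCC, was found in 7.69% of member promoters and 11.9% of all. The third, GTCTAG, was found in 1.92% of member promoters and 8.37% of all. These are descriptions of letters and not of binding.

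Among the medium-chain and family synthetases, Acsm5, a mitochondrial medium-chain acyl-CoA synthetase, was lower in every mutant library than in every control of its table. In both day 6 tables it reached 1 FPKM in the controls alone, so it was tested there only through the group in which it was higher, and its values on day 6 are given as a description with no test. On day 6 it stood at 6.36, 6.33 and 6.93 FPKM in controls and at 0.389, 0.225 and 0.245 in SMAD1/5 iDKO. The mean was 22.8-fold lower. On day 30 the 5 controls held 5.74, 5.93, 7.84, 7.52 and 7.62 FPKM, the iDKO libraries 0.445 and 0.632, and the iTKO libraries 1.56, 0.826 and 1.55. Every mutant library lay far below every control, and the iDKO values lay below the iTKO values. Fold decreases were 12.9 in iDKO (log2 difference −2.83 ± 0.21 SE, limma, adjusted p = 2.87e-05) and 5.29 in iTKO (−2.05 ± 0.19, limma, adjusted p = 9.25e-05). The difference between iTKO and iDKO themselves, 0.78, did not pass the threshold (limma, adjusted p = 0.197).

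Acsm5 was 4.87 and 4.22 FPKM in the SMAD4 controls against 0.781 and 0.849 in iKO, 5.58-fold lower. In the TBX3 table it was 6.95, 6.99 and 6.56 in controls against 2.08, 3.39 and 3.03 in iKO, 2.41-fold lower (−1.16 ± 0.17, limma, adjusted p = 0.0195). Neither pair of groups overlapped, and the TBX3 iKO values were the highest of any mutant group relative to their own controls. The TBX3 call was lost when control 1, control 2 or control 3 was left out (limma, adjusted p = 0.0785, 0.0858 and 0.0857). In approximate fragments, the day 6 values correspond to 510 to 750 in controls and 13 to 44 in iDKO. Values near the added 0.5 FPKM make the log2 difference smaller than the change in FPKM.

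Acsf2, a mitochondrial medium-chain synthetase of a related family, fell in the 4 SMAD comparisons. On day 6 it was 64.2, 68.1 and 54.6 FPKM in controls and 14.9, 13.1 and 9.74 in SMAD1/5 iDKO, 4.95-fold lower (−2.28 ± 0.17, limma, adjusted p = 0.000511). SMAD4 controls at 41.3 and 45.6 compared with 15.3 and 18.1 in iKO, 2.60-fold lower (−1.36 ± 0.15, limma, adjusted p = 0.021). Day 30 controls held 189.8, 72.3, 82.5, 61.4 and 63.8 FPKM, iDKO 28.5 and 28, and iTKO 33.5, 25.6 and 27.6. Control 1 stood far above the other controls, and all 5 stood above all mutants. The log2 difference was −1.57 ± 0.36 in iDKO (limma, adjusted p = 0.0115) and −1.55 ± 0.31 in iTKO (limma, adjusted p = 0.00657). Without control 1 it was −1.29 and −1.26 (limma, adjusted p = 0.000363 and 0.000253). The iDKO call was lost without iDKO 1 or iDKO 2 (limma, adjusted p = 0.0839 and 0.0606). In the TBX3 table, values of 32.8, 31 and 33.2 in controls and 15, 13.5 and 26.3 in iKO did not pass (−0.87 ± 0.24, limma, adjusted p = 0.11).

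Acsf3, the mitochondrial malonyl-CoA synthetase, fell by less. Its day 6 values were 22.3, 27 and 21.7 FPKM in controls and 16, 16.1 and 16.9 in SMAD1/5 iDKO (−0.52, limma, adjusted p = 0.0174), with no overlap. On day 30 it fell in iDKO by 0.43 on the log2 scale (limma, adjusted p = 0.031), and Acsm3, another medium-chain synthetase, fell by 0.80 (limma, adjusted p = 0.0202) from low levels. The day 6 Acsf3 call was lost without iDKO 1, 2 or 3, and the day 30 call without iDKO 1, iDKO 2 or control 4. The Acsm3 call was lost without iDKO 2. With controls of the same line alone, both day 30 calls were lost (limma, adjusted p = 0.137 for Acsf3 and 0.099 for Acsm3). Over the role, 3 of 3 tested members fell in day 6 SMAD1/5 iDKO, 4 of 4 in day 30 iDKO, 2 of 4 in iTKO, 2 of 4 in SMAD4 iKO and 1 of 3 in TBX3 iKO, and none rose. Acsm5 is among the falls in each of these counts, and 8.26%, 9.31%, 8.95%, 2.14% and 2.08% of all genes fell in the same order. In both day 6 tables Acsm5 was tested only through its controls and could only fall, so its calls there are not support for those counts. Exons of Acsm3 overlap those of Eri2 on the other strand over 39.7% of their length, and no strand setting of the counting is given in the sources used here, so reads of such pairs cannot be told apart. Acsm genes lie in a family of similar sequences, and reads shared between near-identical copies make their levels less certain.

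**Figure D2:**
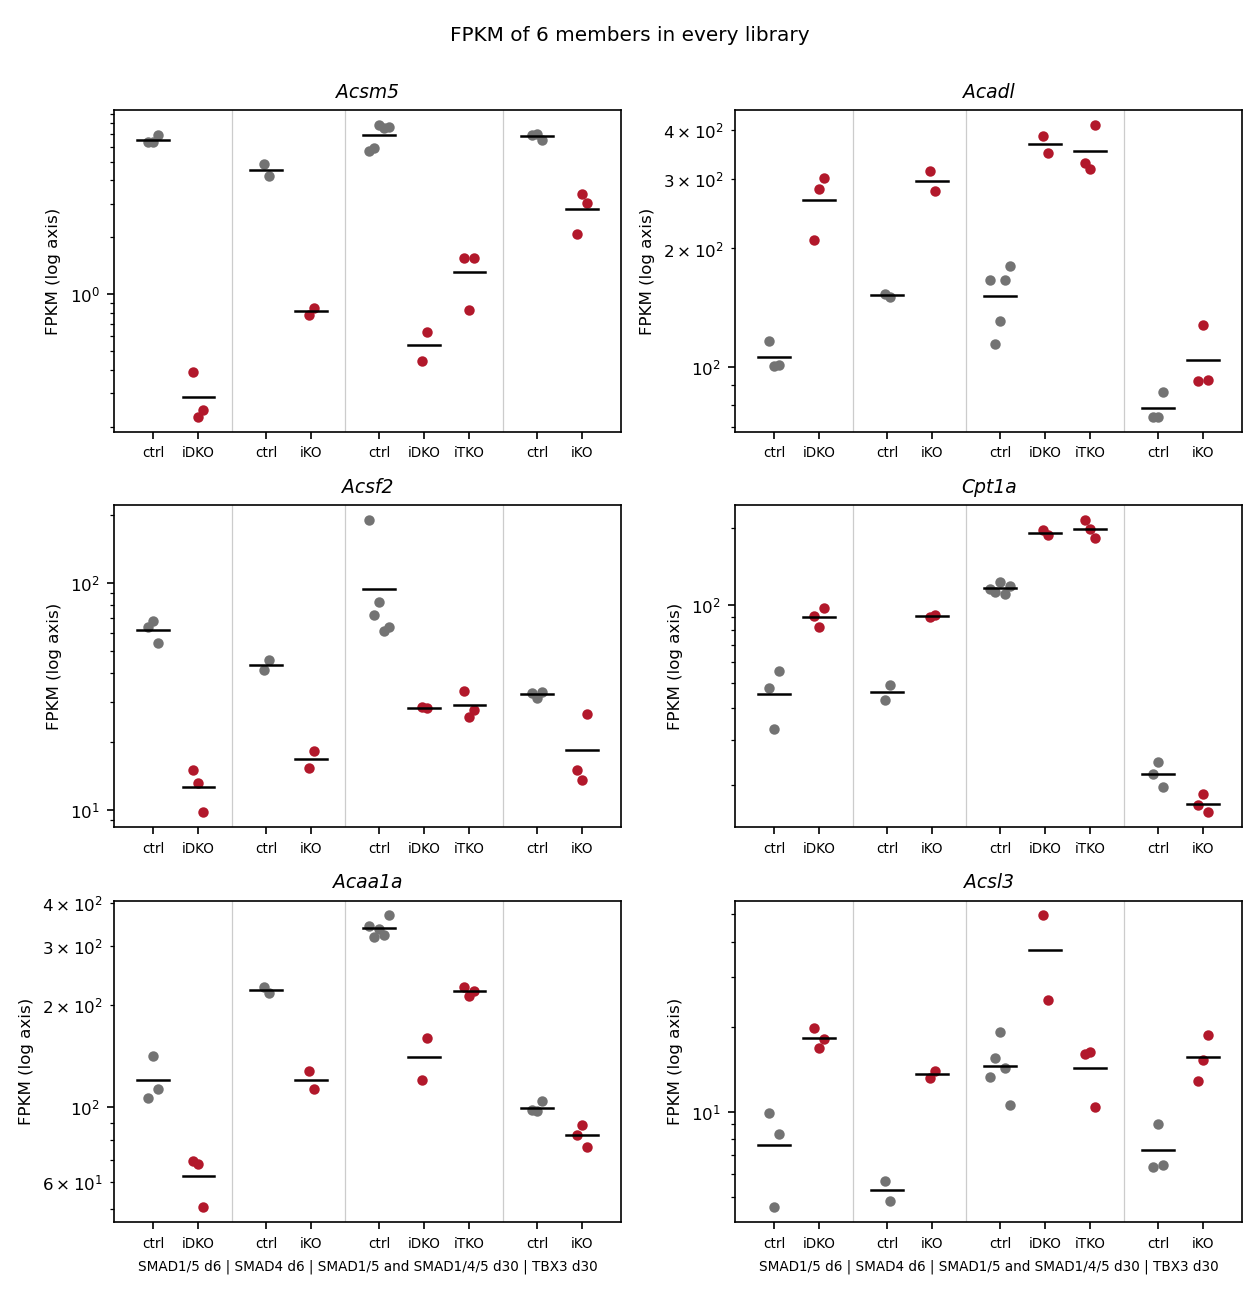
FPKM on a log axis for 6 members in each library, with controls in grey, mutants in red and a line at each group mean; vertical lines separate the 4 tables, which were normalised separately. Acsm5 lies lower in every mutant group than in its controls, from 22.8-fold in day 6 SMAD1/5 iDKO to 2.41-fold in TBX3 iKO, and the high point among the day 30 controls of Acsf2 is control 1 at 189.8 FPKM.

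Of the long-chain synthetases, Acsl5, the form that dominates in enterocytes, was the most abundant member in every table's controls. Its control means were 712.8 ± 31.4 (SD, n = 3) and 648.3 ± 74.6 FPKM (n = 2) in the day 6 SMAD1/5 and SMAD4 tables and 1981 ± 391 (n = 5) and 962.1 ± 38.5 (n = 3) in the day 30 SMAD and TBX3 tables, and it was called in none of the comparisons. Acsl3, which activates fatty acids at the endoplasmic reticulum and on lipid droplets, rose in 4 of the 5 comparisons with controls. Day 6 values were 9.87, 4.57 and 8.36 FPKM in controls and 19.7, 16.8 and 18 in SMAD1/5 iDKO, 2.40-fold higher (1.27 ± 0.26, limma, adjusted p = 0.0158). In SMAD4 iKO 13.2 and 13.9 compared with 5.68 and 4.84 in controls (1.29 ± 0.16, limma, adjusted p = 0.0254), and in TBX3 iKO 12.8, 15.2 and 18.7 with 6.38, 9.06 and 6.45 (1.04 ± 0.19, limma, adjusted p = 0.0345). No mutant library overlapped its controls in those 3 tables.

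On day 30 the Acsl3 values were 13.3, 15.4, 19.1, 14.2 and 10.5 FPKM in controls, 49.6 and 24.9 in iDKO and 16, 16.2 and 10.4 in iTKO. Both iDKO libraries exceeded every control, while the iTKO libraries lay among the controls. The difference was 1.28 ± 0.28 in iDKO (limma, adjusted p = 0.00972) and −0.03 in iTKO (limma, adjusted p = 0.95), and the direct difference of −1.31 between iTKO and iDKO did not pass (limma, adjusted p = 0.097). Without iDKO 1 the day 30 difference was 0.79 (limma, adjusted p = 0.151), and with the controls of the SMAD1/5 line alone it was 1.27 (limma, adjusted p = 0.0606), and the day 6 call was lost without iDKO 1 or iDKO 3 (limma, adjusted p = 0.0507 and 0.0558). The TBX3 call was lost when any 1 of the 6 libraries was left out (limma, adjusted p from 0.0596 to 0.144). Acsl1 and Acsl4 were called nowhere, and Acsl6 stayed under 1 FPKM.

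In the carnitine shuttle, Cpt1a, the form of carnitine palmitoyltransferase 1 that sets the rate of long-chain entry into mitochondria in most tissues outside muscle, rose in all 4 SMAD comparisons. It was 47.5, 33.1 and 55.5 FPKM in day 6 SMAD1/5 controls and 90.5, 82 and 97.7 in iDKO, 1.99-fold higher (1.01 ± 0.19, limma, adjusted p = 0.0126). The SMAD4 controls held 42.9 and 49.1 and the iKO libraries 89.7 and 91.8, 1.97-fold higher (0.98 ± 0.13, limma, adjusted p = 0.0331). Day 30 controls lay between 111 and 123 FPKM, with a median of 116, against 196 and 187 in iDKO and 214, 198 and 182 in iTKO. The controls were close together and clear of both mutant groups. The rise was 1.65-fold in iDKO (0.72 ± 0.09, limma, adjusted p = 0.000342) and 1.70-fold in iTKO (0.77 ± 0.07, limma, adjusted p = 0.000133). In the TBX3 table the iKO values of 16.8, 18.4 and 15.7 lay below the controls' 22.1, 24.5 and 19.7 without passing (−0.37 ± 0.12, limma, adjusted p = 0.17). Without iDKO 3 the day 6 adjusted p was 0.052. Cpt2 was called nowhere.

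Acadl, the long-chain acyl-CoA dehydrogenase, rose in the same 4 comparisons. On day 6 it was 116, 101 and 101 FPKM in SMAD1/5 controls and 211, 284 and 302 in iDKO, 2.50-fold higher (1.31 ± 0.16, limma, adjusted p = 0.00271). SMAD4 controls were at 153 and 151 and iKO at 315 and 281, 1.96-fold higher (0.97 ± 0.12, limma, adjusted p = 0.0297). On day 30, 166, 114, 131, 167 and 180.1 FPKM in controls compared with 386 and 351 in iDKO and 331, 319 and 413 in iTKO. No mutant library reached down to the highest control. These were rises of 2.43-fold in iDKO (1.30 ± 0.18, limma, adjusted p = 0.000694) and 2.34-fold in iTKO (1.23 ± 0.15, limma, adjusted p = 0.000517). TBX3 iKO libraries, at 92.1, 128 and 92.3, also lay above their controls at 74.6, 74.3 and 86.3, but the difference did not pass (0.39 ± 0.15, limma, adjusted p = 0.249).

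Acadm, the medium-chain acyl-CoA dehydrogenase, went the other way. It was 42.7, 45.4 and 43.4 FPKM in day 6 controls and 33, 33.3 and 26.7 in SMAD1/5 iDKO (−0.50, limma, adjusted p = 0.0205). On day 30 the controls held 276, 246, 216, 235 and 239.9 FPKM, iDKO 152 and 173, and iTKO 179, 179 and 183 (−0.57 and −0.42, limma, adjusted p = 0.00303 and 0.00809). Long- and medium-chain dehydrogenase transcripts thus lay on opposite sides of their controls in the same libraries. The day 6 Acadm call was lost without control 3 or iDKO 3, and the day 30 iDKO call without iDKO 1 (limma, adjusted p = 0.0515). Acad11, which acts on long chains, fell in day 30 iDKO to 34.6 and 57.5 from 75.5 to 101 FPKM (−0.90, limma, adjusted p = 0.0109), a call lost without iDKO 1 (limma, adjusted p = 0.164) and with controls of the same line alone (limma, adjusted p = 0.107). Acadvl, the very-long-chain dehydrogenase, was 49.4, 48.5 and 44.1 in day 6 controls and 57.5, 63 and 59.9 in iDKO (0.34, limma, adjusted p = 0.0344). That rise fell to 0.17 with median-centred libraries (limma, adjusted p = 0.302), it was also lost without control 1, control 3 or any 1 of the iDKO libraries, and 42.9% of the exon length of Acadvl overlaps Dvl2 on the other strand. The branched-chain dehydrogenases Acad8 and Acadsb were called nowhere.

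At the later mitochondrial steps, 1 call was made among the 5 tested members in all the comparisons. Hadha, the alpha subunit of the trifunctional protein, was 56.3, 55.9 and 56.2 FPKM in day 6 controls and 68.6, 73.3 and 71.8 in SMAD1/5 iDKO (0.34, limma, adjusted p = 0.0244). It was 0.17 after median centring (limma, adjusted p = 0.272), and the call was lost without control 1, control 3 or any 1 of the iDKO libraries. Hadhb, the other subunit, Hadh, the short-chain hydroxyacyl-CoA dehydrogenase, Acaa2, the mitochondrial thiolase, and Eci1, an enoyl-CoA isomerase, were not called.

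The peroxisomal enzymes were called in 1 direction in every comparison with controls: of 8 tested, 4 fell in day 6 SMAD1/5 iDKO, 6 in day 30 iDKO, 3 in iTKO, 2 in SMAD4 iKO and 0 in TBX3 iKO, and 0 rose. The shares of all genes that fell were 8.26%, 9.31%, 8.95%, 2.14% and 2.08% in that order. Their median log2 differences were −0.62, −0.79, −0.24, −0.66 and −0.12 in that order. Summed over the role, 586.5 ± 47.9 FPKM in day 6 controls (SD, n = 3) compared with 365.7 ± 28.4 in iDKO (n = 3), and 747.8 ± 23.4 in SMAD4 controls with 476.7 ± 47.0 in iKO (n = 2 each). On day 30 the sums were 963.9 ± 49.2 in controls (n = 5), 549.1 ± 80.2 in iDKO (n = 2) and 748.4 ± 66.2 in iTKO (n = 3). TBX3 iKO, at 502.1 ± 6.93, was close to its controls at 526.0 ± 35.4 (n = 3 each).

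Acaa1a, the peroxisomal thiolase that ends each round of shortening, fell in the 4 SMAD comparisons. Day 6 levels were 106, 142 and 113 FPKM in controls and 69.2, 68 and 50.6 in SMAD1/5 iDKO, 1.93-fold lower (−0.94 ± 0.17, limma, adjusted p = 0.00995). SMAD4 controls at 226 and 217 compared with iKO at 128 and 113, 1.84-fold lower (−0.88 ± 0.13, limma, adjusted p = 0.0362). On day 30 the controls ranged from 317 to 369 FPKM with a median of 336, iDKO held 120.4 and 159.9, and iTKO held 227, 212 and 221. The 3 groups were separate, with iTKO between iDKO and the controls. Levels were 2.41-fold lower in iDKO (−1.28 ± 0.11, limma, adjusted p = 6.2e-05) and 1.53-fold lower in iTKO (limma, adjusted p = 0.00195). TBX3 iKO values of 82.9, 88.6 and 76.2 lay below 97.9, 97.3 and 104 in controls without passing (limma, adjusted p = 0.215). Its close copy Acaa1b also fell on day 30, in iDKO to 17.1 and 17 FPKM (−1.19 ± 0.25, limma, adjusted p = 0.00787) and in iTKO to 31.8, 16.3 and 14.5 (−0.99 ± 0.22, limma, adjusted p = 0.0103), from 31.9, 46.6, 39.97, 41 and 39.4 in controls. Those Acaa1b calls were lost without iDKO 1 (limma, adjusted p = 0.066) and without iTKO 3 (limma, adjusted p = 0.0525), and the iDKO call also with controls of the same line alone (limma, adjusted p = 0.0947). Reads shared between the 2 copies could have been divided between them.

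Eci3, a peroxisomal enoyl-CoA isomerase, fell in 3 comparisons. It was 29.4, 39.5 and 42.8 FPKM in day 6 controls and 13.9, 18.3 and 10.4 in SMAD1/5 iDKO, 2.62-fold lower (limma, adjusted p = 0.00791). SMAD4 controls at 65.4 and 63.9 compared with 30.9 and 34.3 in iKO, 1.98-fold lower (−0.98 ± 0.13, limma, adjusted p = 0.0313). Day 30 controls held 28.2, 22.3, 23.8, 24.9 and 34.6, iDKO 10.4 and 14.9, and iTKO 27.1, 25 and 29.8. Here iDKO lay below every control and iTKO among them, with differences of −1.06 ± 0.18 (limma, adjusted p = 0.00237) and 0.04 (limma, adjusted p = 0.89). Its near copy Eci2 was called nowhere.

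Ehhadh, the peroxisomal bifunctional enzyme, fell in SMAD1/5 iDKO on both days. It was 89, 91.6 and 95.3 FPKM in day 6 controls and 67, 58.5 and 51.8 in iDKO (−0.64 ± 0.11, limma, adjusted p = 0.0103). On day 30 it was 68.4 to 79.1 in controls and 46.5 and 53.8 in iDKO (−0.53 ± 0.10, limma, adjusted p = 0.00591, lost without iDKO 1 at 0.0901). Its groups did not overlap on either day. Acox2, the oxidase of branched chains and bile acid intermediates, was 6.05, 10.5, 12.6, 8.23 and 6.04 in day 30 controls, 5.31 and 3.27 in iDKO and 2.63, 2.59 and 2.03 in iTKO. It was 3.60-fold lower in iTKO (−1.61 ± 0.25, limma, adjusted p = 0.00159). The iDKO difference of −0.92 (limma, adjusted p = 0.0452) was lost in 11 of 17 alternatives, among them leaving out control 2, 3 or 4 or either iDKO library and using controls of the same line alone.

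**Figure D3:**
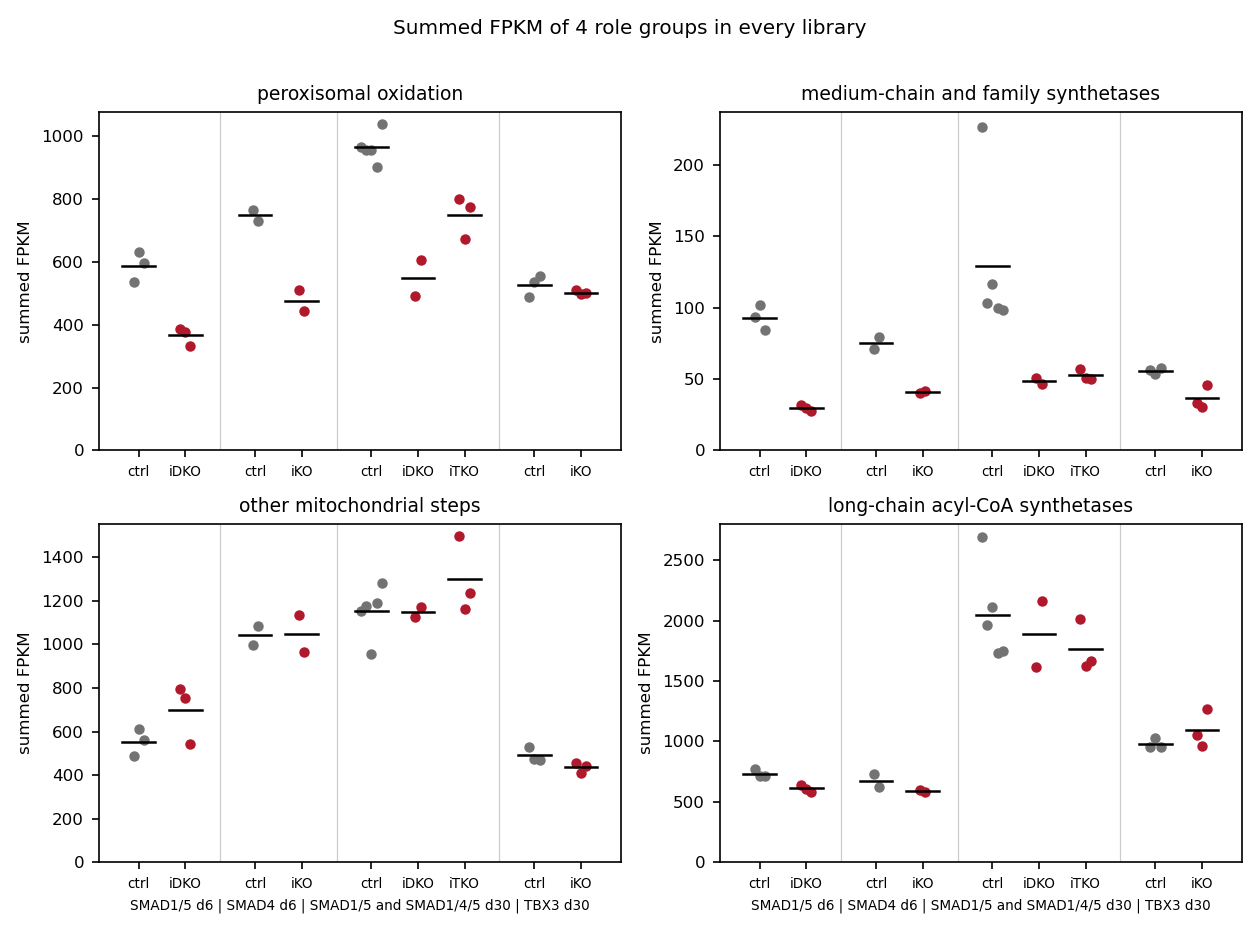
Summed FPKM of 4 roles in each library, from 0, with controls in grey, mutants in red and a line at each group mean; vertical lines separate the tables. The peroxisomal sums of the day 6 SMAD1/5 libraries centre on 586.5 in controls and 365.7 in iDKO without overlap, while sums of the other mitochondrial steps overlap between groups in most tables.

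Thioesterases moved in both directions. Acot1, a cytosolic thioesterase of long-chain acyl-CoA, was 8.5, 2.14 and 6.03 FPKM in day 6 SMAD1/5 controls and 15.5, 14.8 and 15.3 in iDKO, 2.74-fold higher (1.55 ± 0.41, limma, adjusted p = 0.0377). In SMAD4 iKO it was 8.14 and 11.6 against 1.43 and 1.26, 7.35-fold higher (2.47 ± 0.23, limma, adjusted p = 0.0158). Its mitochondrial neighbour Acot2 rose beside it, from 4.93, 2.47 and 3.86 to 8.09, 6.42 and 7.54 in SMAD1/5 iDKO (0.92 ± 0.22, limma, adjusted p = 0.0287). In SMAD4 iKO Acot2 was 6.01 and 5.67 against 2.27 and 2.74 in controls (1.08 ± 0.18, limma, adjusted p = 0.0494). Controls and mutants did not overlap for either gene, and neither was called on day 30. Both day 6 SMAD1/5 calls were lost without control 3, iDKO 1, iDKO 2 or iDKO 3. The Acot1 to Acot6 cluster holds near-identical copies, so reads may have been divided among them.

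Acot12, a cytosolic thioesterase of acetyl-CoA, fell most in iTKO and SMAD4 iKO. On day 30 it was 43.6, 62.3, 62.9, 39.9 and 48.6 FPKM in controls, 24.4 and 37.7 in iDKO and 21.8, 10.4 and 12.3 in iTKO. The controls lay above both mutant groups and iTKO lay lowest, 3.47-fold under the controls (−1.81 ± 0.24, limma, adjusted p = 0.000807), while the iDKO difference of −0.73 did not pass (limma, adjusted p = 0.101). SMAD4 iKO held 10.8 and 8.28 against 23.6 and 31.2, 2.88-fold lower (−1.48 ± 0.21, limma, adjusted p = 0.035). In day 6 SMAD1/5 iDKO it fell by 0.49 on the log2 scale (limma, adjusted p = 0.0305). With replicate numbers as a paired block that adjusted p was 0.0508, and the call was also lost without control 2, control 3, iDKO 2 or iDKO 3. Acot7 fell there by 0.42 (limma, adjusted p = 0.0299), a call lost without any 1 of control 1, 2 and 3 or iDKO 1 and 3. Acot11 was 47.7, 55.6, 42.7, 50.4 and 53 FPKM in day 30 controls and 65.1, 61.8 and 77.2 in iTKO (0.44 ± 0.11, limma, adjusted p = 0.0175), lost without iTKO 3 (limma, adjusted p = 0.0927). It shares 20.9% of its exon length with Fam151a on the other strand.

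The direct comparison of SMAD1/4/5 iTKO with SMAD1/5 iDKO on day 30 called 2 members, both higher in iTKO (4.65% of 43), where 0.218% of all genes were higher, 0.544% lower and 0.762% either. They were Acaa1a, by 0.66 ± 0.12 (limma, adjusted p = 0.0366), and Eci3, by 1.10 ± 0.19 (limma, adjusted p = 0.0303), whose values are given above. Neither call held when iDKO 1 or any 1 of the 3 iTKO libraries was left out, or when each genotype was set against controls of its own line. Without iDKO 2, 4 members were called. This contrast sets 2 libraries against 3 from different mouse lines, and line and genotype cannot be told apart in it.

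The SMAD1/5 line was measured on both days with separate controls. Of the members tested in both tables, 3 rose on both days, which was 42.9% of the 7 that rose on day 6 and 100% of the 3 that rose on day 30, namely Acadl, Acsl3 and Cpt1a. On both days 8 members fell, 80.0% of the day 6 falls and 72.7% of the day 30 falls, and Acaa1a, Acadm, Acsf2, Acsf3, Acsm5, Eci3 and Ehhadh were among them. For all genes the shared shares were 46.0% and 70.6% of rises and 68.1% and 58.8% of falls. Between day 6 SMAD1/5 iDKO and SMAD4 iKO, all 5 members that rose in SMAD4 iKO (Acadl, Acot1, Acot2, Acsl3, Cpt1a) and all 5 that fell (Acaa1a, Acot12, Acsf2, Acsm5, Eci3) were called in the same direction. These were 71.4% and 50.0% of the members that rose and fell in SMAD1/5 iDKO. In both day 6 tables Acsm5 was tested only through its controls, so its calls there could only be falls. Its place among the shared falls of both overlaps is therefore not support for them. Over all genes the shares of the SMAD4 calls found in SMAD1/5 iDKO were 74.8% of rises and 82.8% of falls, and those of the SMAD1/5 calls found in SMAD4 iKO were 6.05% and 22.9%.

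**Figure D4:**
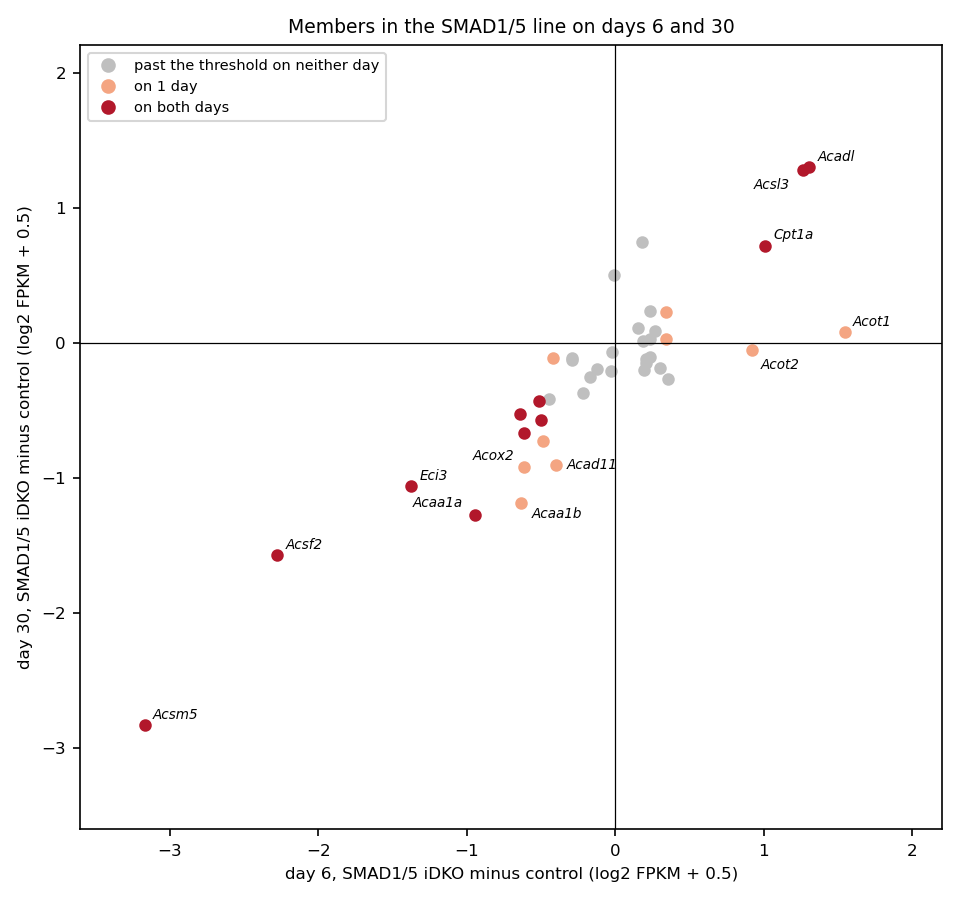
Log2 differences of FPKM + 0.5, SMAD1/5 iDKO minus control, on day 6 (horizontal axis) and day 30 (vertical axis) for the 41 members tested on both days, coloured by the number of days with an adjusted p under 0.05. The 11 members past the threshold on both days lie in the lower left, down to Acsm5 at −3.17 and −2.83, or the upper right, up to Acadl at 1.31 and 1.30, while Acot1 and Acot2 lie to the right near 0 on the vertical axis. Acsm5 was tested on day 6 only through its controls, so its point there is a description.

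Other genes of lipid metabolism were read from lists set beside the members. The counts below stand against 15.5% of all genes rising and 8.26% falling in day 6 SMAD1/5 iDKO, 9.43% and 9.31% in day 30 iDKO, 9.13% and 8.95% in iTKO, 1.28% and 2.14% in SMAD4 iKO, and 1.34% and 2.08% in TBX3 iKO. Among 25 tested genes that serve oxidation but are outside the member families, 4 rose and 5 fell in day 6 SMAD1/5 iDKO. They included Acat1, the mitochondrial acetoacetyl-CoA thiolase (1.80), and Slc25a20, the carnitine carrier that works between CPT1 and CPT2 (1.03), on the log2 scale. On day 30 Acat1 and Slc25a20 rose in iDKO as well, by 1.43 and 0.92, among 3 that rose and 9 that fell, and 2 rose and 5 fell in iTKO. In SMAD4 iKO 2 fell, Scp2 and Phyh, both peroxisomal (−0.76 and −0.80), and in TBX3 iKO 2 fell, Acat1 and Slc27a2 (−0.60 and −1.15).

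Of the genes for making and using ketone bodies, 4 of 6 tested rose in day 6 SMAD1/5 iDKO, 2 of 7 rose in day 30 iDKO, and 1 rose and 2 fell in iTKO. Bdh2, a hydroxybutyrate dehydrogenase, had a mean of 2.40 FPKM in day 6 SMAD1/5 iDKO and 0.40 in its controls. On day 30 its means were 5.55 in iDKO, 0.73 in controls and 0.13 in iTKO, the last 2 near the added 0.5 FPKM. In both tables it passed the filter only through iDKO, where it was higher. Its values are thus a description, and its calls in the counts above are not support for them. Slc16a7, the other gene of this list that fell in iTKO, had means of 0.86 FPKM in day 30 controls, 0.30 in iDKO and 0.21 in iTKO. It passed the filter only through the controls, where it was higher, so its fall is not support for the count either. Ppara, the receptor that drives many oxidation genes, was called in no comparison with controls, with differences of 0.05, −0.13, 0.47, 0.77 and −0.48 for day 6 iDKO, day 30 iDKO, iTKO, SMAD4 iKO and TBX3 iKO (limma, adjusted p = 0.87, 0.758, 0.15, 0.154 and 0.175). On the list of PPAR factors and targets, 6 of 22 rose and 6 fell in day 6 SMAD1/5 iDKO, 4 and 7 in day 30 iDKO, 3 and 4 in iTKO, 2 and 2 in SMAD4 iKO and 1 and 3 in TBX3 iKO. Cd36, a fatty acid uptake receptor, fell in all of them, by 1.86, 2.39, 1.26, 1.93 and 1.68. Plin2, which coats lipid droplets, rose by 1.71, 1.21 and 1.09 in the first 3 and fell by 0.65 in TBX3 iKO.

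Of 20 genes of peroxisome assembly and content, 1 fell in each comparison with controls, and it was Cat, the peroxisomal catalase, with differences of −0.77, −0.90, −0.82, −1.36 and −0.89. At most 3 of the list rose. The peroxins, which import enzymes into the organelle or divide it, make up most of that list, and those not past the threshold may still differ by less than these tests could detect. Of the synthesis and elongation genes, 6 of 16 rose and 1 fell in day 6 SMAD1/5 iDKO, 8 rose in day 30 iDKO, 4 in iTKO, 0 of 15 in SMAD4 iKO and 3 of 14 in TBX3 iKO. Elovl6, which elongates palmitate, rose by 1.18, 1.57, 1.33 and 1.36 in the 4 groups other than SMAD4 iKO. Genes of triglyceride rebuilding and chylomicrons fell in 6, 6, 5, 2 and 2 of 18 cases in the same order, with at most 1 rising, and citric acid cycle genes in 6, 5, 3, 1 and 0 of 17, with none of the latter rising.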

How the data were processed

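The 4 tables of FPKM were made and deposited by the authors. HISAT2 2.2.1 was the aligner and featureCounts 2.0.1 of Subread the counter, per the submitters' processing notes. The same notes list 2 mouse builds, GRCm39 and mm10, and do not tie them to tables. Each table was normalised on its own, so no test crossed tables. The members, their roles and the other gene lists were chosen with earlier results of these data known.

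Genes with at least 1 FPKM in as many libraries as the smallest group were tested on log2(FPKM + 0.5) with limma 3.58.1 in R 4.3.3, with a mean-variance trend. P-values were adjusted by the Benjamini-Hochberg method over all genes of a comparison, and 0.05 was the threshold. The day 30 SMAD table, with 10 libraries, was fitted once. No value column was left without a library. Per-library values are given for Acsm5, Acaa1a and Acadl and for called members with a mean of at least 5 FPKM in the higher group, at most the 6 largest rises and 6 largest falls per comparison. The companion genes named are among the 3 of smallest adjusted p per list and comparison, or were added after their values were seen so that a gene named in 1 comparison could be followed across the others. Values of 1 member and 1 companion gene are not reported here, though both count in the totals.

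Libraries of a group correlated across genes at 0.955 to 0.984 on the log2 scale, and none were identical. Approximate depth came from the smallest FPKM step times exon length, and no counting intervals are given. In data simulated with the libraries' own spread, the share of genes changed 2-fold that was called was 56% for day 6 SMAD1/5, 68% for day 30 iDKO, 78% for iTKO, 3% for SMAD4 and 68% for TBX3. For 4-fold changes it was 93%, 92%, 93%, 48% and 92%. Fewer genes were changed in each simulation than were called in any comparison with controls. The adjustment depends on how many genes change, so these shares are a rough guide only. Deviations of same-numbered control and iDKO libraries of day 6 SMAD1/5 correlated across genes at 0.143, 0.583 and 0.221. Those of control 1 with iDKO 3 and control 3 with iDKO 1 did so at 0.366 and 0.253, and the other pairs correlated negatively. These values do not establish pairing by number, and the labels do not give it. The paired fit is reported there as an alternative where it changes a call, and the main fits treated no numbers as pairs. Alternatives changed the pseudocount, filter, scaling, trend, block, controls and libraries used. Summaries used pandas 2.3.3 and numpy 2.4.6 in Python 3.11.15, and figures matplotlib 3.10.9.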

Additional observations from a re-analysis of the deposited data

Results flagged for a closer look

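Among the 22 members named by library, the 5 day 30 SMAD controls were searched for a library standing apart, by the gap to its nearest neighbour over the range of the group. Acsf2 in control 1, at 189.8 FPKM, was the 1 found, with a gap of 0.836 of the range and the next control at 82.5. At the cut-off of such a search chance alone gives about 1 library in 20 groups, and the rate for a gap this large was not computed.

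Acaa1a and Eci3 differed between SMAD1/4/5 iTKO and SMAD1/5 iDKO on day 30, by 0.661 and 1.103 on the log2 scale (limma with Benjamini-Hochberg adjustment, adjusted p = 0.0366 and 0.0303), each higher in all 3 iTKO libraries than in both iDKO libraries. Each call was lost in 8 of 15 alternatives, among them leaving out any 1 iTKO library and setting each genotype against its own line's controls. Line and genotype cannot be told apart in this contrast.

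Some members had log2 differences from controls that were positive in 1 mutant group and negative in another, and 5 are given here. The share of all genes with such a pattern was not counted. Several of the differences did not pass the threshold, among them Acadvl in day 30 iDKO and TBX3 iKO (limma, adjusted p = 0.877 and 0.64). Acox2 in TBX3 iKO and Acot2 in day 30 iDKO did not pass either (limma, adjusted p = 0.539 and 0.92). Of the contrasts between mutant groups, only iTKO against iDKO on day 30 was tested, and none of these 5 members was called in it. The other contrasts cross tables and were not tested. Cpt1a was higher in day 6 SMAD1/5 iDKO (1.01 on the log2 scale), day 30 iDKO (0.718), iTKO (0.765) and SMAD4 iKO (0.976) and lower in TBX3 iKO (−0.371). Acox2 was higher in SMAD4 iKO (0.599) and TBX3 iKO (0.244) and lower in day 6 SMAD1/5 iDKO (−0.611), day 30 iDKO (−0.918) and iTKO (−1.607). Acadvl was higher in day 6 SMAD1/5 iDKO (0.343), day 30 iDKO (0.031) and SMAD4 iKO (0.242) and lower in TBX3 iKO (−0.185). Acot2 was higher in day 6 SMAD1/5 iDKO (0.923) and SMAD4 iKO (1.084) and lower in day 30 iDKO (−0.054). Acot7 was higher in TBX3 iKO (0.615) and lower in day 6 SMAD1/5 iDKO (−0.417).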

How the results depend on the processing

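Of 924 values of named members under the alternatives, 748 stayed on their side of the threshold, 176 lost their call and 0 reversed. Under every alternative tried for their comparison, 6 of 17 member calls held in day 6 SMAD1/5 iDKO, 5 of 15 in day 30 iDKO, 7 of 10 in iTKO, and none of 10 in SMAD4 iKO or of 2 in TBX3 iKO. Acaa1a and Acadl were among those kept in each of the first 3, and Acsm5 in both day 30 groups. When 1 library was left out at a time, all-gene calls ranged from 1092 to 2319 for day 6 SMAD1/5 iDKO (2575 with all libraries), 905 to 2225 for day 30 iDKO (2238; 905 without iDKO 1), 1246 to 2048 for iTKO (2159; 1246 without iTKO 3), 21 to 314 for iTKO against iDKO (91), 2 to 76 for SMAD4 iKO (417) and 47 to 346 for TBX3 iKO (335). Member calls ranged from 7 to 15 (17 with all), 6 to 15 (15), 8 to 11 (10), 0 to 4 (2), 0 to 0 (10) and 0 to 2 (2). On day 6 SMAD1/5 they were 11 without control 3, iDKO 1 or iDKO 2 and 7 without iDKO 3, and in TBX3 0 without control 2 or 3 and 1 without control 1 or iKO 1. Member medians ranged from −0.122 to 0.03 (−0.021 with all), −0.257 to −0.154 (−0.187), −0.139 to −0.068 (−0.086), 0.004 to 0.09 (0.046), −0.102 to −0.008 (−0.055) and −0.082 to −0.013 (−0.05). Where a group was left with 1 library, it was assumed to vary like the others.

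With replicate numbers as a block, calls over all genes were 834 for SMAD4 iKO, 40 for TBX3 iKO, 746 for day 30 iDKO, 898 for iTKO and 8 for iTKO against iDKO, members were 6 in day 30 iDKO and 0 in iTKO against iDKO and in TBX3 iKO, and the median of iTKO against iDKO was 0.121. In day 6 SMAD1/5 iDKO the block ended no named call other than that of Acot12. Deviations of same-numbered libraries correlated at −0.151, −0.312 and −0.01 in TBX3 and at 0.283 in SMAD4. With 2 libraries a group, both SMAD4 pairs must give the same value, so it counts as 1 observation. With controls of the same line alone, day 30 iDKO had 1022 genes and 9 members called and a member median of −0.275. Each genotype against its own line gave 7 genes, 0 members and 0.179 for iTKO against iDKO, and only the compared groups gave 23 genes and 0 members. Without the mean-variance trend that contrast had 0 members and SMAD4 iKO 5. Without a filter, SMAD4 iKO had 1 gene and 0 members and TBX3 iKO 126 genes and 0 members. The day 6 SMAD1/5 member median was −0.117 without a filter, −0.192 with median centring, −0.148 with quantile normalisation and 0.065 without control 2 and iDKO 2, both low in Paneth transcripts, an alternative chosen after seeing the data. The TBX3 median was 0.007 with median centring. The cause was not tested. The SMAD4 table, with 2 libraries a group and unknown depth, limits what can be detected most.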
